A study of Homo sapiens with 10 samples.

Results

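Signalling by transforming growth factor beta (TGF-β) was followed through 10 human genes, namely the ligand TGFB1, its presenter NRROS, the receptors TGFBR1 and TGFBR2, the signal transducers SMAD2, SMAD3 and SMAD4, the inhibitory SMAD7 and the corepressors SKI and SKIL. They were taken by name for their place in the pathway, with earlier results of these libraries known. All 10 were among the 36591 human genes in the table of counts, and all 10 were among the 15455 genes tested, which had 10 or more counts in 6 or more of the 10 libraries. RNA came from human microglia (hMG) sorted as CD11b+ and human CD45+ cells from the brains of 5 AppHu and 5 AppSAA mice at 6 months of age, 1 library per mouse. Mice of both groups lacked Rag2 (Rag2KO), and with it mature T and B cells, and carried a human CSF1 sequence in the mouse gene (hCSF1KI). Newborn mice received the CSF1R inhibitor BLZ945, which depletes mouse microglia, and were grafted at postnatal day 4 with microglia progenitors made by the MIGRATE protocol from the embryonic stem cell line H9, an established human line. The AppHu mice, whose genotype the labels call AppKI, have a mouse App gene with the human Aβ sequence and served as controls. In AppSAA mice the same gene also holds the Swedish, Arctic and Austrian mutations of familial Alzheimer's disease, and Aβ plaques form. All hMG were from 1 cell line, and mouse microglia remained in the host brains. Each group held mice of both sexes in unequal numbers, and the labels used here do not give the sex of each library.

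TGF-β is secreted in a latent form that stays bound to its own propeptide. On microglia the transmembrane protein NRROS holds this latent complex at the cell surface, and integrins release the ligand from it. The free ligand brings TGFBR2 and TGFBR1 together, TGFBR1 phosphorylates SMAD2 and SMAD3, and these enter the nucleus with SMAD4 to change transcription. SMAD7 blocks the receptors and is itself induced by the pathway, whereas SKI and SKIL hold SMAD complexes in a repressed state. In the brain this pathway is known for keeping microglia in their homeostatic state. The counts give RNA levels only, and neither ligand release nor SMAD phosphorylation was measured in them.

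SMAD complexes are known to bind the letters CAGAC, read as GTCTG on the other strand, and SMAD7 and SKIL are classical feedback targets of the pathway. The 250 bases before the transcription start of these genes and of SMAD3, which had the smallest p of the 10, are therefore printed, each from the RefSeq window nearest to the annotated gene start. The windows are from GRCh38.p14 and read 5′ to 3′ on the strand of the gene, and capitals mark CAGAC or GTCTG.
SMAD7 (chr18:48950966-48951215, reverse strand): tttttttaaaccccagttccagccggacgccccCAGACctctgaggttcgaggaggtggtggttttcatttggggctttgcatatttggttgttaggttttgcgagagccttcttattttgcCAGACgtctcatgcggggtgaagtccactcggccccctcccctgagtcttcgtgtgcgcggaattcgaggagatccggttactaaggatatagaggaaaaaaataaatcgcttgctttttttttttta
SKIL (chr3:170357465-170357714, forward strand): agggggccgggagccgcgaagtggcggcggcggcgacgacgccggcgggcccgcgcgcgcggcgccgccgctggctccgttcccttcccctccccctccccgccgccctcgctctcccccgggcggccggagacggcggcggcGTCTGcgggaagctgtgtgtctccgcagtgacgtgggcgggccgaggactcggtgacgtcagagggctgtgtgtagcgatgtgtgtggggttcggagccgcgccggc
SMAD3 (chr15:67065352-67065601, forward strand): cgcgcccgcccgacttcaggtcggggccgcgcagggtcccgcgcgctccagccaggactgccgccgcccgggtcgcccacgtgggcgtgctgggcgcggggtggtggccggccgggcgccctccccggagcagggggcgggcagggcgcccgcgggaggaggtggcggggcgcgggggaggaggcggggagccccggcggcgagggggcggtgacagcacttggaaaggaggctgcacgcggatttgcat
Windows were matched for 9 of the 10 genes, and SKI had none. The letters occurred at 2 places in the window of SMAD7, 2 in that of NRROS, 1 in that of SKIL and 1 in that of TGFBR1. They were not in the windows of TGFB1, TGFBR2, SMAD2, SMAD3 and SMAD4. CAGAC or GTCTG was present in 38.0% of the 35116 RefSeq windows of this length, so that a match is common in any promoter. The longer palindrome GTCTAGAC, which was in 0.182% of all windows, was in none of the 9. Only 1 window per gene was searched, although SMAD7 had 3 windows, SMAD3 5 and TGFBR1 8. The starts of the windows searched lay 1839 bases from the annotated gene start for SMAD3, 1685 for SMAD4 and 373 for SKIL. Letters missing here may thus lie in other windows or outside the 250 bases. These matches are letters in a window and not bound sites.

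Libraries held 25040739 to 39641854 counts in all. Of these, 28386080 to 38325734 in AppHu and 24165871 to 30556909 in AppSAA were on human genes, and mouse genes took 3.12% to 4.97% and 2.12% to 3.85%. The label of the cells was compared with marker genes. All 13 markers of human microglia were measured, and their summed level was 42905 to 48513 CPM (counts scaled to the library total) in AppHu and 37270 to 46593 CPM in AppSAA. The 6 markers of T and NK cells summed to at most 4.01 CPM, and the 6 of neutrophils and monocytes to 1.94 to 2.99 CPM in AppHu and 1.56 to 23.1 CPM in AppSAA, with S100A12 and FCN1 at 0 in every library. The 8 markers of macrophages at the borders of the brain, such as MRC1 and LYVE1, summed to 4514 to 5126 CPM in AppHu and 3815 to 4764 CPM in AppSAA. In bulk RNA fewer cells of a type and less RNA per cell cannot be told apart.

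The levels of the 10 genes were first compared within AppHu as CPM per kilobase of merged exons. SKIL had the highest median of 65.9 CPM per kilobase, ahead of TGFBR1 with 36.4 and TGFBR2 with 26.2, and the ranges of these 3 genes over the libraries did not overlap with each other or with those of the other genes. Much lower were SMAD3 with a median of 4.79, SMAD7 with 4.22, NRROS with 3.80, TGFB1 with 2.71, SMAD2 with 2.49, SMAD4 with 2.27 and SKI with 1.53 CPM per kilobase. Among neighbours in this order, the ranges of SMAD3 and SMAD7 overlapped, as did those of NRROS and TGFB1, TGFB1 and SMAD2, and SMAD2 and SMAD4. Against the 12825 tested genes that had a length, SKIL was at percentile 96.6, TGFBR1 at 93.3 and TGFBR2 at 89.6, whereas SMAD3 was at 53.7 and SKI at 30.8. hMG thus held far more RNA per length for the receptors and for SKIL than for the ligand and the SMADs. In AppSAA the order was the same except that SMAD4, with a median of 2.45, stood before SMAD2 with 2.35 CPM per kilobase, and the ranges of these overlapped. The merged exons of SMAD2 and SMAD4 are long, with 36426 and 19606 bases against 10011 for SMAD3. With the length of the canonical transcript instead, SMAD2 had a mean of 2.59 in AppHu in place of 2.46 CPM per kilobase. That transcript is nearly as long as the merged exons, so it does not check the low place of SMAD2. Before division by length SMAD2 had a mean of 89.7 CPM in AppHu, against 47.1 for SMAD3. On the same lengths SMAD4 had a mean of 4.95 ± 0.397 CPM per kilobase (SD, n = 5) in AppHu in place of 2.22, and stood above NRROS with 4.21 ± 0.369 (SD, n = 5). The ranges of TGFBR1 and TGFBR2 overlapped on these lengths, at 43.5 to 50.5 and 39.1 to 50.5 CPM per kilobase in AppHu, whereas SKIL remained above both.

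**Figure D1:**
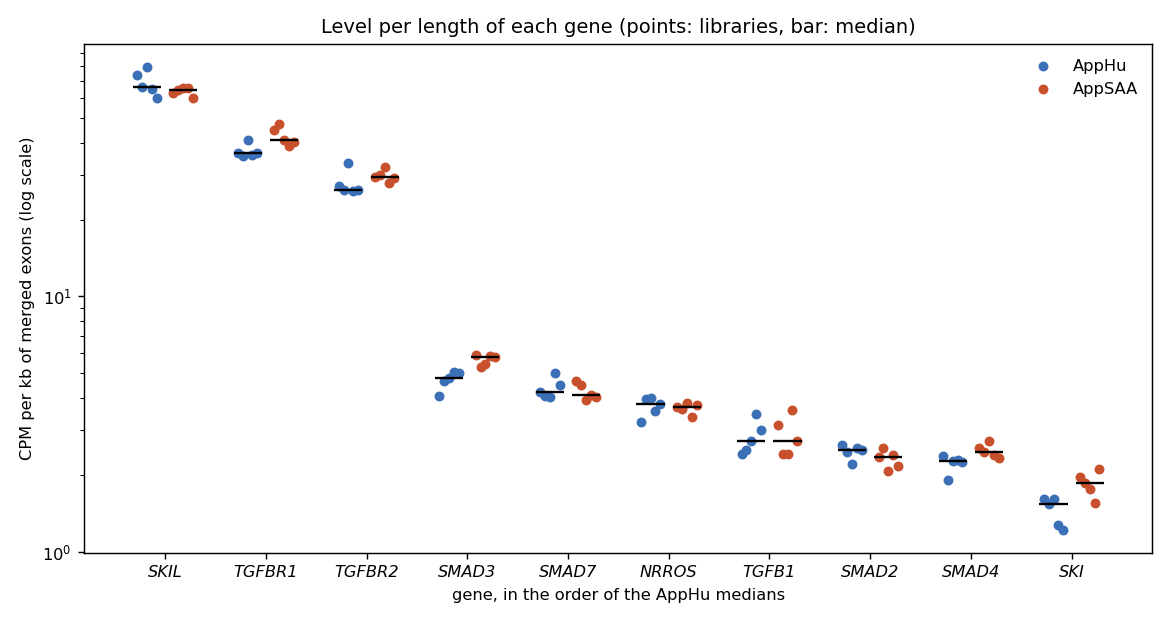
Level of each of the 10 genes as CPM per kilobase of merged exons on a log scale, with AppHu libraries in blue, AppSAA libraries in red and a bar at the median of 5 libraries. SKIL, TGFBR1 and TGFBR2 stand apart at the top with AppHu medians of 65.9, 36.4 and 26.2, and the other 7 genes lie below 6 CPM per kilobase.

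The comparison of AppSAA with AppHu asks how hMG respond to Aβ pathology. None of the 10 genes passed the threshold of 0.05 in edgeR (quasi-likelihood test, Benjamini-Hochberg adjustment over all 15455 genes), where 0.0776% of genes did (0.0712% higher and 0.00647% lower). In DESeq2 0 of the 10 passed, against 1.39% of all genes. At an unadjusted p below 0.05 in edgeR there were 4 of the 10, against 9.8% of all genes, and in DESeq2 3, against 10.3%. The 4 in edgeR, SMAD3, SKI, TGFBR1 and SMAD4, were all higher in AppSAA after scaling to the library, as 5.99% of all genes were at that p. The groups did not overlap for 1 gene, SMAD3, against 2.49% of all genes. Log2 fold changes ranged from -0.11 to 0.35 with a median of 0.06, beside a median of 0.0018 over all genes tested, with 6 genes higher and 4 lower. Over the 10 genes, the 95% intervals reached from 0.814-fold to 1.54-fold, so larger changes of RNA level lay outside the interval of every gene.

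**Figure D2:**
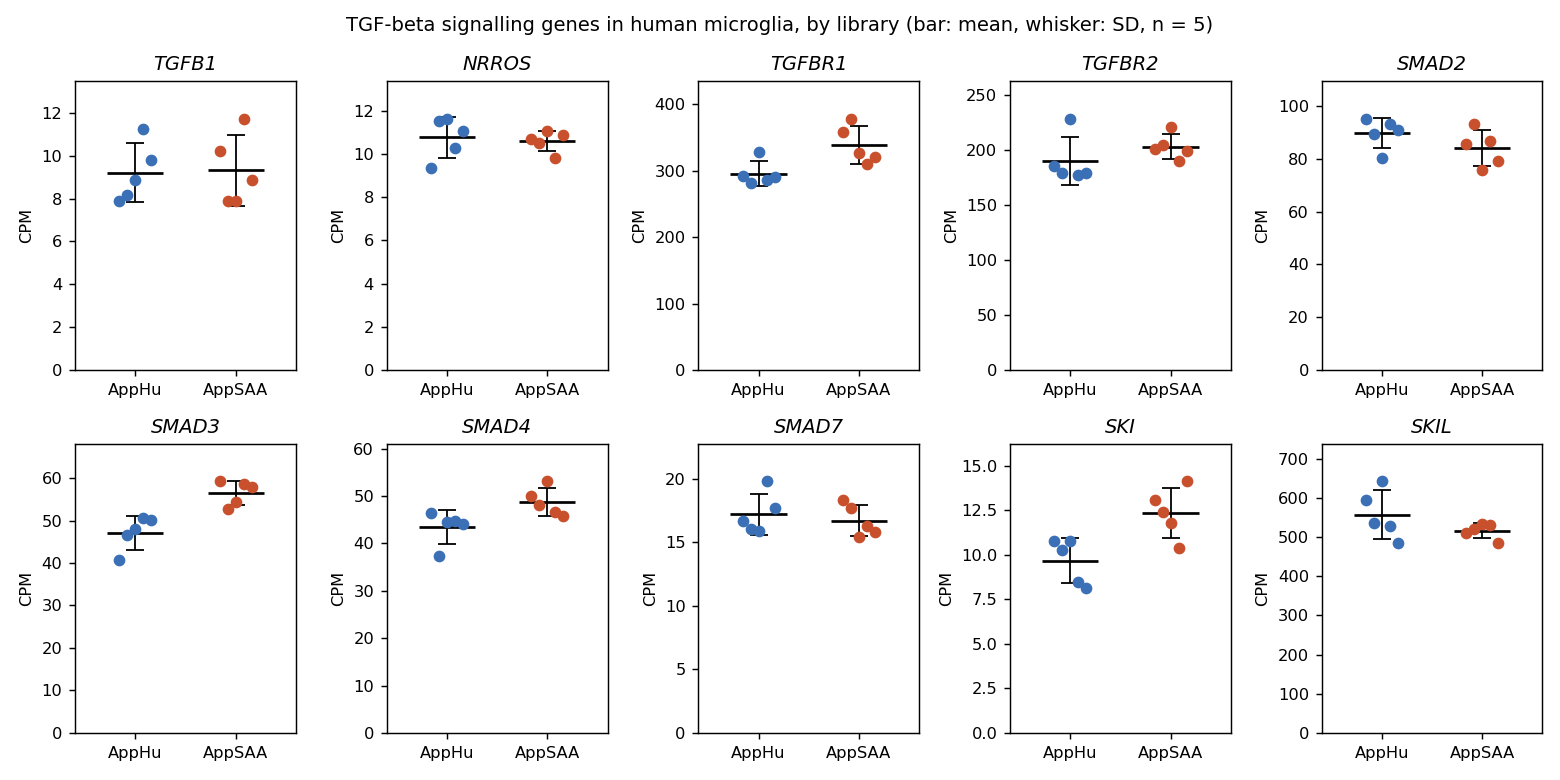
CPM of each gene in every library, with AppHu in blue and AppSAA in red, a bar at the mean and whiskers of 1 SD (n = 5 mice per group). SMAD3 is the 1 gene whose groups do not overlap, with AppHu libraries of 40.7 to 50.5 CPM and AppSAA libraries of 52.8 to 59.2 CPM.

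The ligand and its presenter had log2 fold changes near 0. TGFB1 (chromosome 19, 41301587 to 41353922, reverse strand) had 7.88, 8.18, 8.85, 11.3 and 9.82 CPM in AppHu replicates 3, 4, 6, 7 and 8 and 10.2, 7.90, 7.88, 11.7 and 8.87 CPM in AppSAA replicates 4, 5, 6, 7 and 8. The groups covered nearly the same range. Its log2 fold change was 0.02 (95% interval -0.30 to 0.34, adjusted p = 0.982 in edgeR), and this interval was the widest of the 10. A stretch of 6.6% of its exon bases is shared with HNRNPUL1 on the other strand, so reads there may belong to either gene.

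NRROS (chromosome 3, 196639694 to 196662004, forward strand), which encodes the presenter of latent TGF-β on myeloid cells, had 9.36 to 11.6 CPM in AppHu and 9.81 to 11.1 CPM in AppSAA. All AppSAA values lay inside the AppHu range. On the log2 scale AppSAA differed from AppHu by -0.02 (95% interval -0.24 to 0.19, adjusted p = 0.973 in edgeR). PIGX on the same strand shares 7.6% of the exon bases of NRROS.

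Of the receptors, TGFBR1 had higher values in AppSAA, without passing the threshold. TGFBR1 (chromosome 9, 99104038 to 99154192, forward strand), the receptor kinase that phosphorylates SMAD2 and SMAD3, had 292, 282, 328, 286 and 291 CPM in AppHu replicates 3, 4, 6, 7 and 8 and 359, 378, 327, 310.3 and 320.2 CPM in AppSAA replicates 4, 5, 6, 7 and 8. Every AppSAA library was above the AppHu median, and AppHu replicate 6 alone reached into the AppSAA range. The log2 fold change was 0.20 (standard error 0.0682, 95% interval 0.05 to 0.34), or 14.6% more, and edgeR gave a p of 0.0132 before and 0.329 after adjustment. DESeq2 gave an adjusted p of 0.258, and over 20 alternative settings it lay between 0.212 and 0.642. An exact permutation test (two-sided, on log2 CPM) gave a p of 0.0317 (n = 5 per group).

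TGFBR2 (chromosome 3, 30606601 to 30694142, forward strand), the receptor that first binds the ligand, had 185, 179, 229, 177 and 179 CPM in AppHu replicates 3, 4, 6, 7 and 8 and 202, 204, 221, 190.3 and 199 CPM in AppSAA replicates 4, 5, 6, 7 and 8. All 5 AppSAA libraries were above 4 of the 5 AppHu libraries, and AppHu replicate 6 was above them all. The difference was 0.10 on the log2 scale (95% interval -0.07 to 0.26, adjusted p = 0.762 in edgeR). Without AppHu replicate 6 it was 0.17, with an adjusted p of 0.328 in edgeR, and with other single libraries left out it was as low as 0.066.

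Among the SMADs that the receptor phosphorylates, SMAD3 and SMAD2 lay on opposite sides of 0. SMAD3 (chromosome 15, 67063763 to 67195173, forward strand) had 40.7, 46.5, 47.9, 50.5 and 50.0 CPM in AppHu replicates 3, 4, 6, 7 and 8 and 59.2, 52.8, 54.4, 58.5 and 57.9 CPM in AppSAA replicates 4, 5, 6, 7 and 8. The lowest AppSAA library was above the highest AppHu library. The mean was 47.1 ± 3.96 CPM (SD, n = 5) in AppHu and 56.6 ± 2.80 CPM (SD, n = 5) in AppSAA, and the log2 fold change was 0.26 (standard error 0.0733, 95% interval 0.10 to 0.42), a 1.20-fold difference. In edgeR 242 genes had a smaller p than SMAD3, whose p was 0.00349 before and 0.220 after Benjamini-Hochberg adjustment. With DESeq2 the adjusted p was 0.0744, the lowest of 20 alternative settings, and the highest was 0.440. The exact permutation p was 0.00794, the smallest that 5 against 5 mice allow, and 0.319 after adjustment over all genes. That was also the lowest adjusted permutation p of any gene tested, and 0 genes passed. With so few mice this adjusted value therefore cannot tell SMAD3 from other genes. SMAD3 RNA was thus separated by group in these 10 libraries, but did not pass the adjustment over all genes in edgeR or DESeq2.

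SMAD2 (chromosome 18, 47808957 to 47931146, reverse strand) had 95.1, 89.4, 80.3, 93.0 and 90.9 CPM in AppHu replicates 3, 4, 6, 7 and 8 and 85.5, 93.1, 75.5, 86.8 and 79.0 CPM in AppSAA replicates 4, 5, 6, 7 and 8. Replicate 5 was the 1 AppSAA library above the AppHu median. Its log2 fold change was -0.10 (95% interval -0.25 to 0.06, adjusted p = 0.744 in edgeR).

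SMAD4 (chromosome 18, 51028528 to 51085045, forward strand), the partner shared by all receptor-activated SMADs, had 46.4, 37.4, 44.6, 44.7 and 44.2 CPM in AppHu replicates 3, 4, 6, 7 and 8 and 49.9, 48.0, 53.1, 46.7 and 45.7 CPM in AppSAA replicates 4, 5, 6, 7 and 8. AppHu replicate 3 was above AppSAA replicate 8, and otherwise the groups were separate. The log2 fold change was 0.16 (standard error 0.0751, 95% interval 0.00 to 0.33), and edgeR gave a p of 0.0484 before and 0.501 after adjustment. The exact permutation p was 0.0159 (n = 5 per group). AppHu replicate 4 was low, and without it the log2 fold change was 0.11. With the library total as a covariate in edgeR it was 0.042, and over 20 alternative settings the adjusted p lay between 0.360 and 0.947.

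SMAD7 (chromosome 18, 48919853 to 48950965, reverse strand), which blocks the receptors and whose RNA is a common readout of the pathway, had 16.7, 16.0, 15.9, 19.8 and 17.7 CPM in AppHu replicates 3, 4, 6, 7 and 8 and 18.4, 17.7, 15.4, 16.3 and 15.8 CPM in AppSAA replicates 4, 5, 6, 7 and 8. The groups overlapped over most of their range. AppSAA differed by -0.04 on the log2 scale (95% interval -0.25 to 0.16, adjusted p = 0.936 in edgeR), and it changed sign without AppHu replicate 7, at 0.013.

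The corepressors SKI and SKIL also lay on opposite sides of 0. SKI (chromosome 1, 2227388 to 2310213, forward strand) had 10.8, 10.3, 10.8, 8.48 and 8.15 CPM in AppHu replicates 3, 4, 6, 7 and 8 and 13.1, 12.4, 11.8, 10.4 and 14.1 CPM in AppSAA replicates 4, 5, 6, 7 and 8. Of the AppSAA libraries, 4 were above every AppHu library, and replicate 7 was inside the AppHu range. The log2 fold change of 0.35 (standard error 0.124, 95% interval 0.08 to 0.62) was the highest of the 10 genes, and edgeR gave a p of 0.0144 before and 0.344 after adjustment. Over 20 alternative settings the adjusted p lay between 0.177, in DESeq2, and 0.609. The exact permutation p was 0.0238 (n = 5 per group). SKI was counted 240 to 435 times per library, and reads on mouse Ski were 6.85% to 22.2% of the reads on the gene of both species.

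SKIL (chromosome 3, 170357342 to 170396835, forward strand), which encodes SnoN, had 596, 535, 642, 529 and 484 CPM in AppHu replicates 3, 4, 6, 7 and 8 and 509.6, 521, 534, 530.4 and 486 CPM in AppSAA replicates 4, 5, 6, 7 and 8. The AppSAA libraries all lay inside the wider AppHu range and below its median. SKIL differed by -0.11 on the log2 scale (95% interval -0.27 to 0.05, adjusted p = 0.692 in edgeR).

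**Figure D3:**
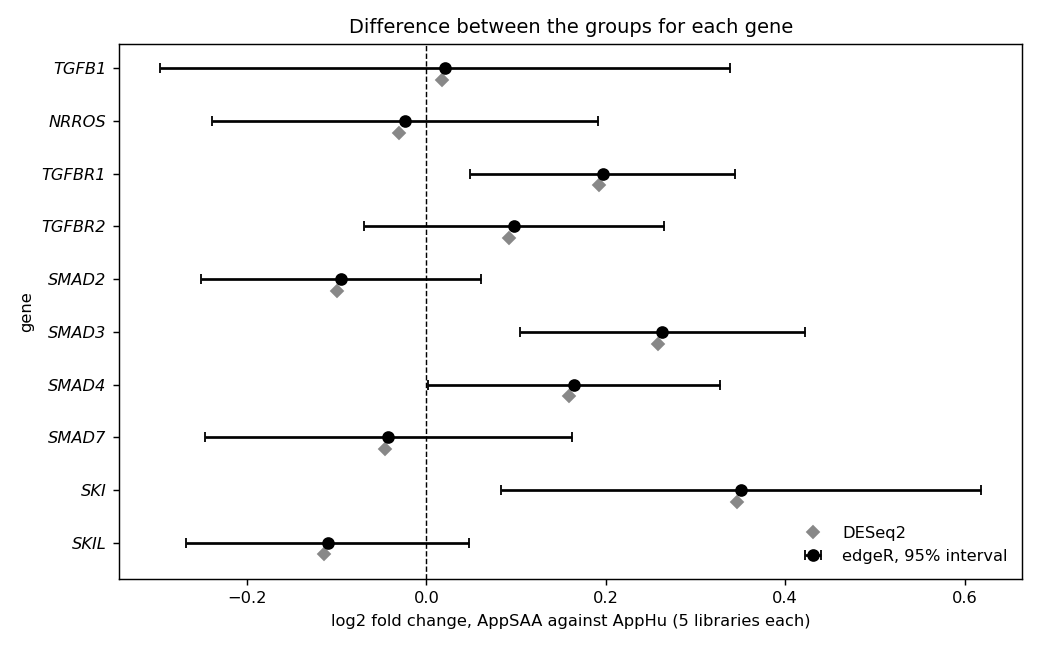
Log2 fold change of AppSAA against AppHu for each gene, with edgeR's estimate and 95% interval as black points and lines and DESeq2's estimate as grey diamonds. The intervals of SMAD3, SKI, TGFBR1 and SMAD4 lie above 0 before adjustment over all genes, and the other 6 include 0.

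Ratios between 2 genes of the same library do not depend on how libraries are scaled, and 4 of them were compared with exact permutation tests (two-sided). There were 2.34, 1.92, 1.68, 1.84 and 1.82 reads on SMAD2 for each read on SMAD3 in AppHu replicates 3, 4, 6, 7 and 8 and 1.44, 1.76, 1.39, 1.48 and 1.36 in AppSAA replicates 4, 5, 6, 7 and 8. One AppSAA library, replicate 5, was inside the AppHu range. On the log2 scale the ratio differed by -0.36 (exact permutation p = 0.0159, 0.0212 adjusted over the 4 ratios). The ratio of the inhibitor SMAD7 to SMAD3 had a median of 0.354 in AppHu and 0.284 in AppSAA, with ranges that overlapped in 1 AppSAA library, and differed by -0.31 on the log2 scale (exact permutation p = 0.0159, adjusted p = 0.0212). For each read on SKI there were 55.4, 52.2, 59.7, 62.4 and 59.4 on SKIL in AppHu replicates 3, 4, 6, 7 and 8 and 39.0, 42.1, 45.3, 51.1 and 34.4 in AppSAA replicates 4, 5, 6, 7 and 8. These groups did not overlap. The ratio differed by -0.46 on the log2 scale (exact permutation p = 0.00794, adjusted p = 0.0212). SMAD3 enters 2 of the 4 ratios, which are therefore not independent of each other or of the single genes. The ratio of the receptors, TGFBR1 to TGFBR2, had medians of 1.58 and 1.63 and differed by 0.09 on the log2 scale, with ranges that overlapped (exact permutation p = 0.183). These adjusted values cover the 4 ratios alone, which were chosen with results of these libraries known.

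**Figure D4:**
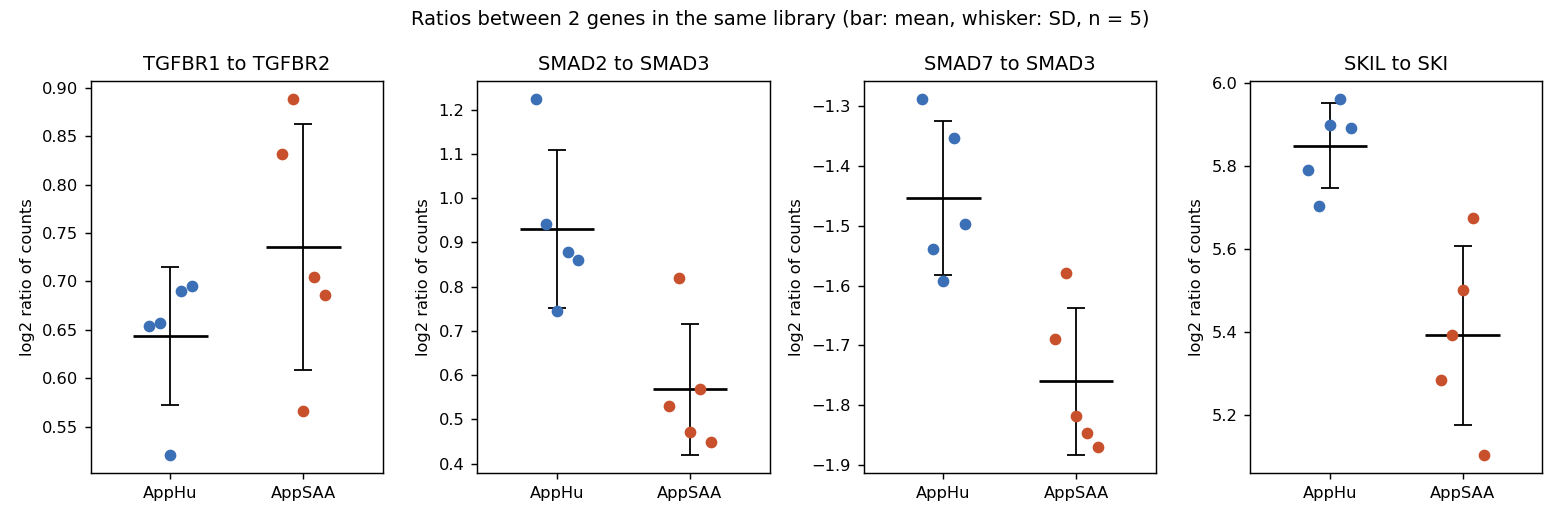
Log2 ratio of the counts of 2 genes in each library, with AppHu in blue, AppSAA in red, a bar at the mean and whiskers of 1 SD (n = 5 mice per group), and axes that do not start at 0. The groups are separate for SKIL to SKI, overlap in 1 AppSAA library for SMAD2 to SMAD3 and SMAD7 to SMAD3, and overlap widely for TGFBR1 to TGFBR2.

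The other genes of the pathway were read from 8 lists that hold 112 genes, of which 89 were tested. Of these 37 were higher and 52 lower in AppSAA, and the median was -0.04 on the log2 scale. None passed the threshold in edgeR and 3 did in DESeq2, against 1.39% of all genes, and 21.3% of the 89 had an unadjusted edgeR p below 0.05 against 9.8% of all genes. In simulated data 16.5% of DESeq2 calls were false, against 5.21% in edgeR.

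Further ligands and parts of the latent complex were read next. TGFB2, LTBP1 and LRRC32, which presents latent TGF-β on regulatory T cells, did not pass the filter, and TGFB2, the highest of these in AppHu, had a mean of 0.308 CPM there. Of the 5 tested, 2 were higher and 3 lower, and the median was -0.24 on the log2 scale. LTBP2, a matrix protein of the latent TGF-β binding family, had 16.6 to 23.9 CPM in AppHu and 10.9 to 16.7 CPM in AppSAA. The ranges overlapped slightly, and the log2 fold change was -0.57 (adjusted p = 0.157 in edgeR and 0.0138 in DESeq2). FURIN, the protease that cuts the TGF-β precursor, had 13.1 to 20.7 CPM in AppHu and 10.8 to 15.1 CPM in AppSAA, and differed by -0.29 on the log2 scale (adjusted p = 0.515 in edgeR).

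Of the integrins and other activators, 7 were tested and 0 passed in either tool. ITGB6 was at 0 in every library and ITGB8 had at most 3 reads, whereas ITGAV had a mean of 146 CPM in AppHu and 159 CPM in AppSAA. The smallest p values belonged to the matrix metalloproteinases MMP14, with a log2 fold change of -0.30 (adjusted p = 0.306 in edgeR), and MMP2, with 0.30 (adjusted p = 0.346), and to the integrin subunit ITGB1 with -0.18 (adjusted p = 0.607). The 2 proteases thus had values of opposite sign.

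Of the other receptors of the superfamily, 9 were tested, with 3 higher, 6 lower and 0 past the threshold. The activin receptor ACVR2B had 13.8 to 17.1 CPM in AppHu and 12.3 to 12.8 CPM in AppSAA, ranges that did not overlap, and a log2 fold change of -0.26 (adjusted p = 0.321 in edgeR). ACVR1B had one of 0.31 (adjusted p = 0.510) and TGFBR3, the coreceptor betaglycan, one of -1.01 (adjusted p = 0.571 in edgeR) at 2.16 ± 1.46 CPM (SD, n = 5) in AppHu and 1.09 ± 0.697 CPM (SD, n = 5) in AppSAA. The other SMADs tested, SMAD5 and SMAD9 of the BMP branch and the inhibitory SMAD6, differed by -0.16, -0.18 and -0.05 on the log2 scale (edgeR adjusted p = 0.454, 0.790 and 0.973), and SMAD1 did not pass the filter. SMAD-independent kinases and adaptors were close to 0, the 5 tested lying between -0.0015 and 0.071, with TAB2 at 0.07, TAB3 at 0.06 and TRAF6 at 0.02.

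Of 27 cofactors and regulators tested, 10 were higher and 17 lower, around a median of -0.04 on the log2 scale. SPTBN1, a spectrin and adaptor of SMAD3 and SMAD4, had 9.66 to 19.5 CPM in AppHu and 20.1 to 44.2 CPM in AppSAA. The groups did not overlap, and the log2 fold change was 0.98 (adjusted p = 0.147 in edgeR and 0.00482 in DESeq2).

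Textbook target genes of TGF-β were the list with the highest median, 0.27, with 11 higher and 5 lower of the 16 tested among 25 listed. The list does not record in which direction each gene responds to TGF-β, so its median has no direction for the pathway. CDKN1A, the cell cycle inhibitor p21, had 42.8 to 74.8 CPM in AppHu and 85.5 to 116 CPM in AppSAA. The groups did not overlap, and the log2 fold change was 0.83 (adjusted p = 0.0565 in edgeR and 8.00e-05 in DESeq2). TGFBI, a matrix protein named for its induction by TGF-β and picked here after its values were seen, lay the other way, with 26.0 to 34.7 CPM in AppHu and 8.25 to 25.6 CPM in AppSAA. Its groups did not overlap either, and it differed by -0.67 on the log2 scale (adjusted p = 0.328 in edgeR and 0.116 in DESeq2). At an unadjusted edgeR p below 0.05, 5 of the 16 were higher and 2 lower, against 5.99% and 3.8% of all genes. Besides CDKN1A, the higher ones were SNAI1 at 1.42, ID3 at 0.70, FN1 at 0.62 and KLF10 at 0.26 on the log2 scale. SNAI1 had means of only 0.323 CPM in AppHu and 0.858 CPM in AppSAA. Besides TGFBI, CDKN1C was lower, at -0.58 on the log2 scale. CDKN1A and several others of the list also respond to other signals, and CCN1 and SNAI2 were at 0 in every library. The number of pathway genes past the threshold was 0 to 3 over 20 alternative settings.

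Of 17 microglial genes known to depend on TGF-β, 4 were higher, 13 were lower and 0 passed the threshold in either tool, and the median was -0.07 on the log2 scale. C1QA, the complement subunit, had 933 ± 56.5 CPM (SD, n = 5) in AppHu and 830.3 ± 46.9 CPM (SD, n = 5) in AppSAA, a log2 fold change of -0.17 (adjusted p = 0.329 in edgeR). The receptor kinase MERTK and the microglial marker TMEM119 differed by -0.15 each on the log2 scale (edgeR adjusted p = 0.455 and 0.459). At an unadjusted p below 0.05 there were 4 of the 17, all lower, against 3.8% of all genes. Target genes and microglial genes thus had medians of opposite sign, and that difference between the lists was not tested.

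**Figure D5:**
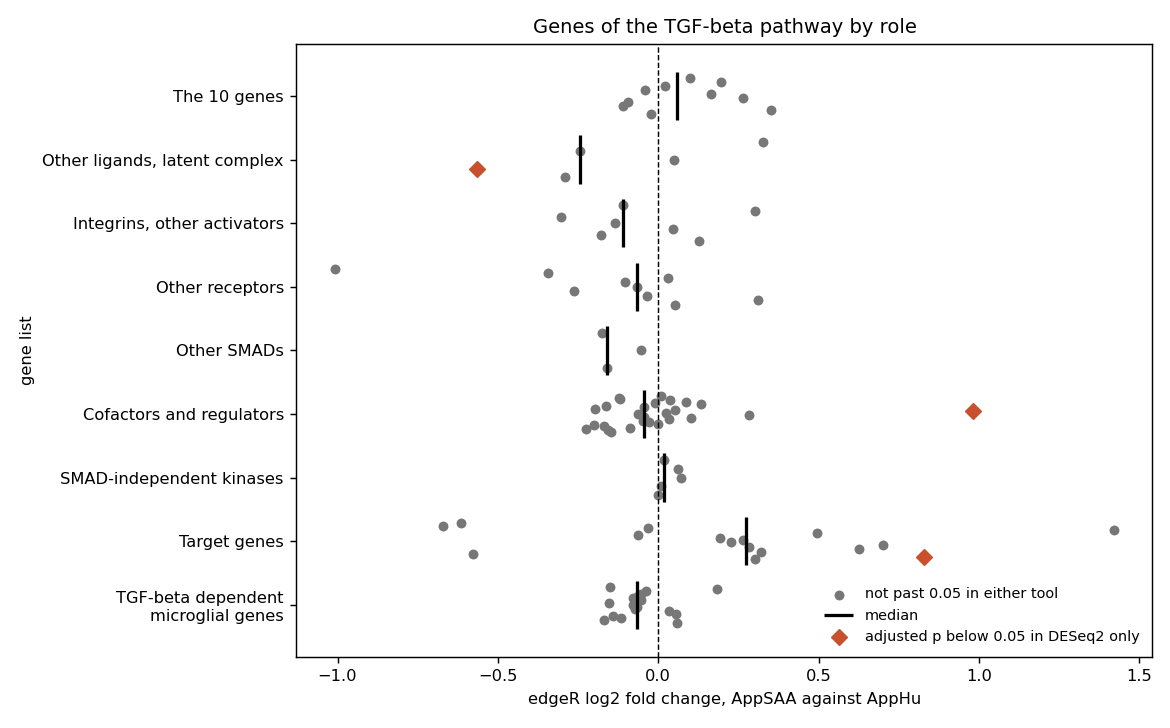
Log2 fold change of AppSAA against AppHu for every tested gene of the 10 and of the 8 lists of the pathway, with a black bar at the median of each list and red diamonds for genes past 0.05 in DESeq2 but not in edgeR. The diamonds are LTBP2 at -0.57, SPTBN1 at 0.98 and CDKN1A at 0.83, and the list medians lie between -0.24 and 0.27.

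Values of other gene groups in the same comparison are given beside these results. Immediate early genes are induced within minutes by many stimuli and by cell dissociation. Of 20 such genes 20 were higher in AppSAA, against 50.5% of all genes, around a median of 0.60 on the log2 scale. In edgeR 2 of them, EGR1 and EGR3, passed the threshold (adjusted p = 0.0331 each), against 0.0776% of all genes. In DESeq2 3 passed, against 1.39% of all genes. The summed level of the 20 genes was 3307 to 4347 CPM in AppHu and 3402 to 5904 CPM in AppSAA. Of the 8 markers of brain border macrophages 7 were lower, with a median of -0.45, and 1, MRC1, passed in DESeq2 (adjusted p = 0.0364) but not in edgeR (adjusted p = 0.185). Of the 13 markers of microglia 12 were lower, with a median of -0.08. These groups are not separate from the pathway lists. P2RY12, TMEM119, CX3CR1, CSF1R, C1QA, SALL1 and GPR34 are also among the microglial genes known to depend on TGF-β. JUNB is among both the immediate early genes and the target genes. The part of these groups in the values of SMAD3, SKI, TGFBR1 and SMAD4 was not tested. With the percentage of mouse counts as a covariate, SMAD3, SKI, TGFBR1 and SMAD4 differed by 0.27, 0.35, 0.19 and 0.18 on the log2 scale. Their edgeR adjusted p values were then 0.440, 0.607, 0.618 and 0.698, against 0.220, 0.344, 0.329 and 0.501 without the covariate.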

How the data were processed

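Sorted hMG from 10 mice were sequenced in bulk after full-length cDNA synthesis with SMART-Seq HT PLUS. The authors checked reads with FastQC 0.11.9, aligned single reads with STAR 2.7.11a to mm10 and GRCh38 combined, and counted them per gene with featureCounts 2.0.1 (versions from the submitters' processing notes). The deposited values are unnormalized whole-number counts of 68836 genes, of which 36591 are human. Annotation release, strand setting and treatment of reads with several alignments are not given in the sources used here.

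Groups came from the genotype labels. Human genes that reached 10 counts in 6 or more libraries (15455) were tested in edgeR 4.0.16 (TMM, quasi-likelihood F test, no covariates) in R 4.3.3 and Benjamini-Hochberg adjustment, with a threshold of 0.05. Intervals are at 95%. CPM were computed from these counts after TMM. DESeq2 1.42.0 and limma 3.58.1 (voom) were alternatives, with RLE and upper-quartile factors, other filters, covariates, a block and each library left out. Permutation tests of single genes ran over all 252 arrangements on log2 CPM with an offset of 0.1, with code checked against scipy 1.17.1. Those of the ratios ran in scipy over all arrangements of the log2 ratios of raw counts, without an offset. Paired differences of the ratios were tested with sign flips. The fits were tested on simulated data. Tests treat each mouse as 1 replicate. Canonical transcript lengths, and the 8 libraries with shared numbers taken without a block, were added after seeing the data.

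The 10 genes and all lists were chosen with earlier results of these data known. Of each list the text names genes past the threshold in edgeR or DESeq2, otherwise the 3 with the smallest p, and genes that define the list. Target genes with an unadjusted edgeR p below 0.05 are named as well. Of the listed genes, ADGRG1 was also entered under its older symbol GPR56, which the table does not use. Positions and exon lengths are from GENCODE 44 on GRCh38, matched by symbol, and may differ from the release counted on. A length was found for 83.0% of the genes tested. Mouse genes were tested apart.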

Additional observations from a re-analysis of the deposited data

Results flagged for a closer look

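In 28 sets of 5 libraries, namely the 10 genes and 4 ratios in each group, the highest and the lowest library were compared with the others, and in 4 sets the gap to the nearest library divided by the whole range was above the critical value of 0.71 for 5 samples. Chance gives about 1 such set in 20. All 4 were in AppHu. On the log2 CPM scale, replicate 6 was the highest for TGFBR1 with a gap of 0.780 of the range and for TGFBR2 with 0.823, and replicate 4 was the lowest for SMAD4 with 0.770. Replicate 6 was also the lowest for the log2 ratio of TGFBR1 to TGFBR2, with 0.766. The receptor sets and their ratio share the same library and are not independent.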

How the results depend on the processing

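None of the 10 genes passed the threshold under any of 20 alternatives, and 7 of them kept the sign of their log2 fold change in all. TGFB1 turned to -0.053 and NRROS to 0.023 with the percentage of mouse counts as a covariate, and NRROS to 0.033 with the library total. With single libraries left out TGFB1 ranged from -0.075 to 0.10, NRROS from -0.072 to 0.0055 and SMAD7 from -0.078 to 0.013. The number of all genes past the threshold, 12 in edgeR, was 215 in DESeq2, 32 without a filter, 52 in limma-voom, 1 with the library total and 5 with the mouse percentage as a covariate, and 2 to 34 with single libraries left out. It was 2 without AppHu replicate 3 or 7 or AppSAA replicate 8, 4 without AppHu replicate 4 or AppSAA replicate 6, and 34 without AppSAA replicate 5. Of the pathway lists 3 genes passed in DESeq2, 1 each with upper-quartile factors, without a filter and in limma-voom, and 0 to 2 with single libraries left out, 2 without AppSAA replicate 5. The replicate numbers 4, 6, 7 and 8 occur in both groups. In their deviations from the group means same-numbered libraries correlated at 0.0315 to 0.182, with 2 of 4 pairs over the bound of 0.1. This does not meet the rule used here for pairing, and whether a number marks anything else in common was not tested. Libraries of the 2 groups with different numbers correlated at -0.236 to 0.267, the highest being AppHu replicate 6 with AppSAA replicate 5. With the number as a block 58 genes, 2 pathway genes and 0 of the 10 passed, against 6 genes in the same 8 libraries without the block. In 2 of the 4 pairs both libraries correlated best with each other. As paired differences, SMAD2 to SMAD3 was -0.35, SMAD7 to SMAD3 -0.31 and SKIL to SKI -0.47, each with an exact sign-flip p of 0.125, the smallest that 4 pairs allow. The ratio of TGFBR1 to TGFBR2 was 0.054 to 0.13 with single libraries left out, and passed without AppSAA replicate 6 (exact permutation p = 0.0476). With canonical transcript lengths, mean levels in CPM per kilobase in AppHu and AppSAA were 45.5 and 52.2 for TGFBR1, 41.9 and 44.9 for TGFBR2, 4.21 and 4.14 for NRROS, 7.29 and 8.75 for SMAD3, 4.95 and 5.55 for SMAD4, 5.15 and 5.00 for SMAD7, 77.9 and 72.2 for SKIL, and 3.31 for TGFB1 in AppHu. The cause of these shifts was not tested. No scaling moved the median of all genes by over 0.1. Depth limits SKI, TGFB1 and NRROS most, at 188 to 443 counts per library.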

Other observations

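The libraries also hold reads on the mouse counterparts of the 10 genes. Together these made up 27.1 to 48.1 CPM, scaled to all counts of both species, in AppHu and 24.5 to 59.2 CPM in AppSAA. Of the reads on a gene in both species, mouse Nrros took 10.0% to 31.9%, Ski 6.85% to 22.2% and Tgfbr1 3.82% to 8.94%, Smad7 took up to 5.82% and Tgfbr2 up to 5.65%, whereas Smad2, Smad3, Smad4, Tgfb1 and Skil each took less than 4% in every library. Mouse Tgfb1 had 0 to 8 reads per library, and it and Smad4 did not pass the filter on low counts.

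Of 9376 mouse genes tested 0.0% passed the threshold in edgeR, so none of the mouse counterparts did. Mouse Nrros was counted 38 to 92 times in AppHu and 39 to 130 times in AppSAA. Its log2 fold change was 1.29 (standard error 0.344, unadjusted p = 0.00200, adjusted p = 0.456 in edgeR), beside -0.02 for human NRROS. Mouse Smad3 had one of 1.42 (adjusted p = 0.523 in edgeR) from 0 to 46 reads per library. These mouse fold changes are relative to mouse counts alone, whereas that of human NRROS is relative to human counts alone. Scaled to all counts of both species, reads on markers of mouse oligodendrocytes were 1623 to 3226 CPM in AppHu and 625 to 1702 CPM in AppSAA. On the same scale, reads on markers of mouse microglia were 139 to 289 CPM in AppHu and 168 to 417 CPM in AppSAA. The part of these cell types in the mouse values was not tested.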
